A study of Mus musculus with 8 samples.

Results

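The genes described here encode the enzymes that move high-energy phosphate through the heart muscle cell, with the proteins that supply their creatine. They are the creatine kinases Ckm, Ckmt2, Ckb and Ckmt1, the adenylate kinases Ak1, Ak3 and Ak4, the creatine transporter Slc6a8 and the creatine synthesis enzyme Gatm. They were chosen by name, and all 9 were found among the 23100 loci of the deposited gene table, each as a locus of its own. Cuffdiff, the authors' test, was run on 8 of the 9, of 12133 genes tested in all, and Ckmt1 was not tested. The members have 21 of the 35754 isoforms in the deposited isoform table.

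RNA was measured in cardiac ventricles of mice aged 4.5 months, from 4 double knockout animals (DKO, Sox5fl/fl, Sox6fl/fl, aMHC-Cre pos) and 4 control animals (Ctrl, Sox5fl/fl, Sox6fl/fl, aMHC-Cre neg). All 8 animals thus carried loxP-flanked alleles of the genes for the SoxD transcription factors Sox5 and Sox6, and the groups differed in a Cre recombinase driven by the αMHC promoter of cardiomyocytes. Ctrl animals carried no Cre, so the deletion and Cre itself cannot be told apart. The series title names pressure overload, but no surgery is recorded for these mice. Every level below is the authors' FPKM (fragment counts scaled to transcript length and to library size), 1 value per genotype over its animals. No value per animal was used, so no level or ratio here carries an error between animals. Sox6 was at 1.69 FPKM in DKO and 3.39 FPKM in Ctrl (log2 ratio -1.01, q = 0.00158 in the authors' deposited table). Sox5 was at 0.497 FPKM in DKO and 0.369 FPKM in Ctrl and was not tested. Other ventricular cells keep both genes, so Sox5 at this level does not check its label.

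Creatine kinases transfer phosphate between ATP and creatine. In heart muscle, the mitochondrial enzyme charges creatine at the site of ATP production, and the cytosolic enzyme regenerates ATP beside the myosin motors and ion pumps. Adenylate kinases interconvert ATP, ADP and AMP, and so link the use of ATP to the AMP signal that activates AMP-activated protein kinase (AMPK). Cardiomyocytes take creatine up from the blood through Slc6a8, since most creatine is made in kidney and liver, where Gatm makes its precursor guanidinoacetate and Gamt methylates it. A fall of the creatine kinase system with a relative gain of the brain-type cytosolic subunit is a known feature of failing and hypertrophied hearts.

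Ckb and Gatm were higher in DKO, by 1.37-fold and 1.45-fold, and the other 6 tested members passed the authors' test in neither direction. The genes that make up nearly all of the pathway's RNA, Ckm, Ckmt2 and Ak1, were listed at 11.4% to 15.6% less FPKM in DKO, and none of them reached a q of 0.05. No member was called lower by Cuffdiff, and 1 of them, Ak1, was lower at an unadjusted p under 0.05. A gene counts as called here when the authors' deposited table gives it a q no higher than 0.05, adjusted over all 12133 tested genes. The background was 7.36% of tested genes called, 4.30% higher and 3.06% lower in DKO. The members held 2 called of 8 tested, too few to compare with that share.

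The sequences upstream of the called genes and of the most abundant members are printed because SoxD factors bind DNA and the members divide into called and uncalled genes. Each is the 250 bases before a RefSeq transcription start, from the table of build GRCm38.p6, 5′ to 3′ on the gene's strand. Capitals mark every match, on either strand, to the following motifs. AACAAT is a single form of the core bound by Sox proteins. AAGGTCA is the site of estrogen-related receptors, regulators of energy genes. CANNTG is the E-box of muscle regulatory factors, and TATAAA is the TATA box. The TATAAA motif, a single form of the TATA box, was added after the sequences were seen. Ckb lies at chr12:111672339-111672588 (minus strand), Gatm at chr2:122611278-122611527 (minus), Ckm at chr7:19410844-19411093 (plus) and Ckmt2 at chr13:91876886-91877135 (minus). The window of Ak1 lies at chr2:32625187-32625436 (plus) and precedes the start of its most abundant annotated transcript.
Ckb: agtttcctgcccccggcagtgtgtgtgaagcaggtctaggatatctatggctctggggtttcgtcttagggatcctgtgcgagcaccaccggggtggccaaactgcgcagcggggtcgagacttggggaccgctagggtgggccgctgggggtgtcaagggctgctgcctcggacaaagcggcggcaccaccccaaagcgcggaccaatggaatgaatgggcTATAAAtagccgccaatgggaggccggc
Gatm: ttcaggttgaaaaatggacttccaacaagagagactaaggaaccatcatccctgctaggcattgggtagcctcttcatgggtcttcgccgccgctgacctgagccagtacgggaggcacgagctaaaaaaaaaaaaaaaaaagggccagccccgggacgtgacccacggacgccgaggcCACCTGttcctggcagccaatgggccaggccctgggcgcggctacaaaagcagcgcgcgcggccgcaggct
Ckm: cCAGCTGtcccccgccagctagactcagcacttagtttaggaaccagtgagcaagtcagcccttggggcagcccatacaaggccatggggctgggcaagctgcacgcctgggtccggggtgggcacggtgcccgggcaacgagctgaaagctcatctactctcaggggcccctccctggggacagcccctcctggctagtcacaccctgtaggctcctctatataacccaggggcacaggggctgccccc
Ckmt2: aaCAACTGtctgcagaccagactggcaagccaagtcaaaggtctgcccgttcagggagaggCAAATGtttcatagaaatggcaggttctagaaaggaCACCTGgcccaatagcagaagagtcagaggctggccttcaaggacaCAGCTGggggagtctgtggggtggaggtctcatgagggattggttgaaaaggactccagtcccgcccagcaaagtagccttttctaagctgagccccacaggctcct
Ak1: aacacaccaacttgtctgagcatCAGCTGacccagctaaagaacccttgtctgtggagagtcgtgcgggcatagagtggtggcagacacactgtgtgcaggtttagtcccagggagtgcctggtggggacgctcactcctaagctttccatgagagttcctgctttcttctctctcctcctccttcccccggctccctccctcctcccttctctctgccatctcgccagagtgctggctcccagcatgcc

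The table held 15 such windows for 8 of the 9 members, all but Slc6a8. None of the 15 windows held AACAAT, which 9.42% of all 32851 promoter windows held. At that share, 15 windows are too few for its absence to set the members apart. Other forms of the Sox core were not searched. The string TATAAA stood 28 to 23 bases before the start of Ckb and in none of the other printed windows, and 12.4% of all windows held it. Near its end, the printed Ckm window reads tatataa, a related string that the search did not cover. Ckb is therefore not set apart from Ckm by a TATA box. Ckb held no E-box, Ckmt2 held 4, and Gatm, Ckm and the printed Ak1 window held 1 each. In all, 8 of the 15 windows held an E-box, as did 66.2% of all windows, but the 15 are not separate sequences. Of the Ak4 windows, 3 overlap, with starts at most 32 bases apart, and none of the 3 held an E-box. The estrogen-related receptor site was present in 2 windows, 1 of Ak1 and 1 of Ckmt1, which are not printed, and in 4.08% of all windows. The motifs overlapped each other in no printed sequence. A match is a string of letters and no measured binding site, and these windows say nothing about more distant enhancers.

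**Figure D1:**
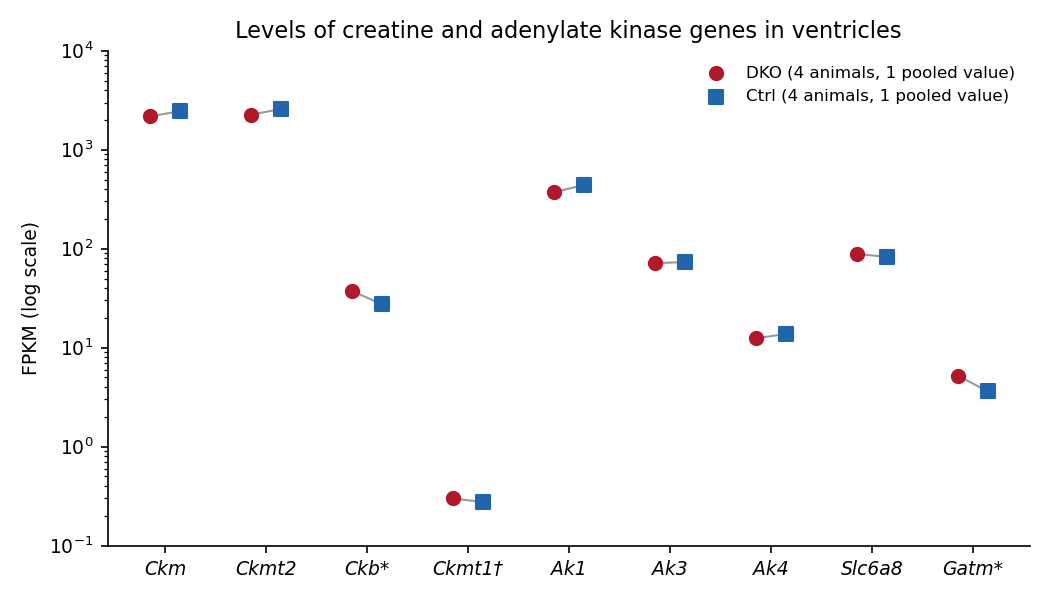
Level of each of the 9 genes as FPKM on a log scale, with 1 pooled value for DKO (red circles) and 1 for Ctrl (blue squares), which carry no error. An asterisk marks genes called at a q of at most 0.05 and a dagger marks the untested Ckmt1. Ckm and Ckmt2 stand highest, at 2171 to 2581 FPKM, and Ckb and Gatm are the called genes.

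The muscle-type cytosolic creatine kinase Ckm was at 2171 FPKM in DKO and 2449 FPKM in Ctrl. The sarcomeric mitochondrial creatine kinase Ckmt2 was at 2255 FPKM in DKO and 2581 FPKM in Ctrl. Both were listed lower in DKO by a similar proportion, 11.4% for Ckm and 12.6% for Ckmt2, and neither passed the test. The log2 ratio was -0.17 for Ckm (p = 0.104, q = 0.461) and -0.19 for Ckmt2 (p = 0.0736, q = 0.378), both from the authors' deposited p-values and q-values. Among the tested genes ranked by FPKM, Ckm held rank 34 in DKO and 34 in Ctrl, and Ckmt2 held rank 32 in DKO and 30 in Ctrl. The ratio of Ckm to Ckmt2 was 0.963 in DKO and 0.949 in Ctrl, so the pair was of nearly equal abundance in both genotypes. Ckm lies on chromosome 7 at 19996443 to 20006932 and Ckmt2 on chromosome 13 at 91979179 to 92016490, in the authors' build mm9, as are all gene positions below.

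The pair stood close to the middle of the very abundant genes. Of the 91 tested genes with a mean FPKM of at least 1000, 80 had a log2 ratio below 0, and their median was -0.18, with quartiles of -0.25 and -0.11. Of these, 10 were called, and the smallest called change in the class was 0.29 on the log2 scale. The change listed for Ckm and Ckmt2 is therefore smaller than any that the authors' test called at this level. When ratios were centred on the cardiomyocyte markers instead, whose median log2 was -0.20, the directions turned, to 0.03 for Ckm and 0.01 for Ckmt2. In bulk tissue, fewer cardiomyocytes and less of these RNAs per cardiomyocyte cannot be told apart.

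Ckb, the brain-type cytosolic creatine kinase, was at 37.6 FPKM in DKO and 27.4 FPKM in Ctrl. Its log2 ratio of 0.45 came with q = 0.00158 in the authors' deposited table and the smallest p-value there, 5e-05, which 385 called genes share. It ranked at 2118 of the tested genes in DKO and 2847 in Ctrl, and 95.2% of tested genes had a lower log2 ratio. Its locus on chromosome 12, at 112907566 to 112910549, has a single isoform of 1478 bases and overlaps no other listed locus. The isoform was called as well (q = 0.00312 in the authors' deposited table). Ckb stayed a minor transcript next to Ckm, with 57.8 Ckm per Ckb in DKO and 89.3 in Ctrl on the FPKM scale. Processed pseudogenes of Ckb exist in the mouse genome, and the placement of reads that match them is not described in the sources used.

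Ckmt1, the ubiquitous mitochondrial creatine kinase of brain and epithelia, was at a very low level. It was listed at 0.300 FPKM in DKO and 0.276 FPKM in Ctrl and has no test result. Its locus on chromosome 2, at 121184377 to 121206676, overlaps that of Strc.

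Summed over the 4 creatine kinases, FPKM came to 4464 in DKO and 5058 in Ctrl, a log2 ratio of -0.18. Ckm made up 48.6% of the sum in DKO and 48.4% in Ctrl, and Ckmt2 50.5% in DKO and 51.0% in Ctrl. Ckb made up 0.841% in DKO and 0.542% in Ctrl, a share 1.55 times as large in DKO. Within the cytosolic genes alone, Ckb was 1.70% of Ckm and Ckb together in DKO and 1.11% in Ctrl. The muscle and sarcomeric forms kept their proportion to each other while the brain form gained, and no error between animals can be put on these shares.

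**Figure D2:**
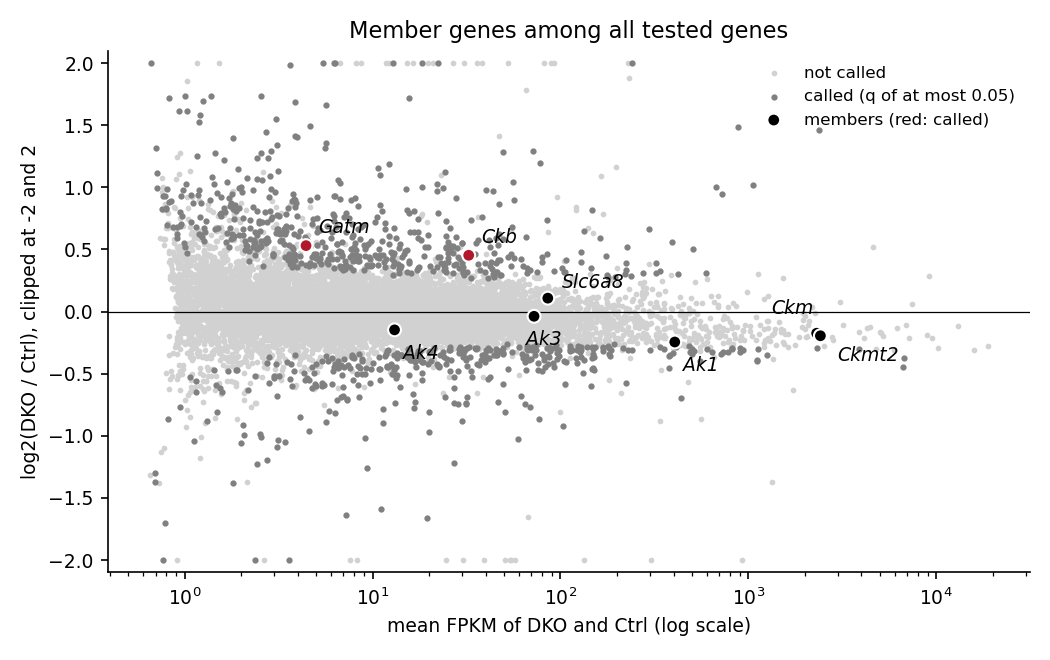
The log2 ratio of DKO over Ctrl (vertical, clipped at -2 and 2) against mean FPKM (log scale) for all 12133 tested genes, with called genes in dark grey. The 8 tested members are large points, red where called. Ckb and Gatm lie within the upper band of called genes, and Ckm, Ckmt2 and Ak1 lie just below 0 within the cloud of abundant genes.

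Among the adenylate kinases, Ak1, the main cytosolic form of muscle, was at 372 FPKM in DKO and 440 FPKM in Ctrl. The log2 ratio was -0.24, and the gene missed the threshold (p = 0.00765, q = 0.0852 in the authors' deposited table). Of the tested members it had the lowest log2 ratio, and 8.09% of all tested genes had a lower one. Among the 702 tested genes with a mean FPKM from 100 to 1000, 99 were called, and the smallest called change was 0.26 on the log2 scale, just above the value of Ak1. Centred on the cardiomyocyte markers, the log2 ratio of Ak1 was -0.04.

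The listed difference of Ak1 was unevenly divided between its transcripts. Ak1 lies on chromosome 2 at 32477278 to 32490578 and has 5 isoforms, each with its own start site group. The most abundant, of 2067 bases, begins at the start whose upstream sequence is printed above, and was at 243 FPKM in DKO and 266 FPKM in Ctrl (log2 ratio -0.13, q = 0.796 in the authors' deposited table). An isoform of 1979 bases with splice junctions outside the reference annotation was at 112 FPKM in DKO and 159 FPKM in Ctrl (log2 ratio -0.51, p = 0.00620, q = 0.135 in the authors' deposited table). This unannotated isoform made up 30.2% of Ak1 in DKO and 36.2% in Ctrl. It accounted for 68.6% of the difference between the genotypes in FPKM, and the most abundant isoform for 34.3%. The other 3 isoforms were at 4.11 to 6.26 FPKM in either genotype. The coding sequence table holds no entry for the unannotated isoform, and there the log2 ratio of Ak1 was -0.12. Neither isoform was called, and whether their ratios differ was not tested.

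Ak3, which uses GTP in the mitochondrial matrix, was at 71.4 FPKM in DKO and 73.3 FPKM in Ctrl. Its log2 ratio of -0.04 was the smallest in size among the members (q = 0.944 in the authors' deposited table). Ak4, a matrix protein of the same family, was at 12.4 FPKM in DKO and 13.8 FPKM in Ctrl (log2 ratio -0.15, q = 0.524 in the authors' deposited table). With ratios centred on the cardiomyocyte markers, Ak3 was at 0.16 and Ak4 at 0.05, so both directions turned. Ak3 lies on chromosome 19 at 29095322 to 29123219, where its locus overlaps 1700018L02Rik, and Ak4 on chromosome 4 at 101091894 to 101140376.

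Summed FPKM of the 3 adenylate kinases came to 455 in DKO and 527 in Ctrl, of which Ak1 was 81.6% in DKO and 83.5% in Ctrl. Ak3 was 15.7% of that sum in DKO and 13.9% in Ctrl. The cytosolic form thus dominated in both genotypes. Among other adenylate and related nucleoside monophosphate kinases, 3 of the 6 found were tested by Cuffdiff, and none was called or had an unadjusted p under 0.05. Among them, Cmpk1, which phosphorylates CMP and UMP, was at 26.1 FPKM in DKO and 26.4 FPKM in Ctrl.

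**Figure D3:**
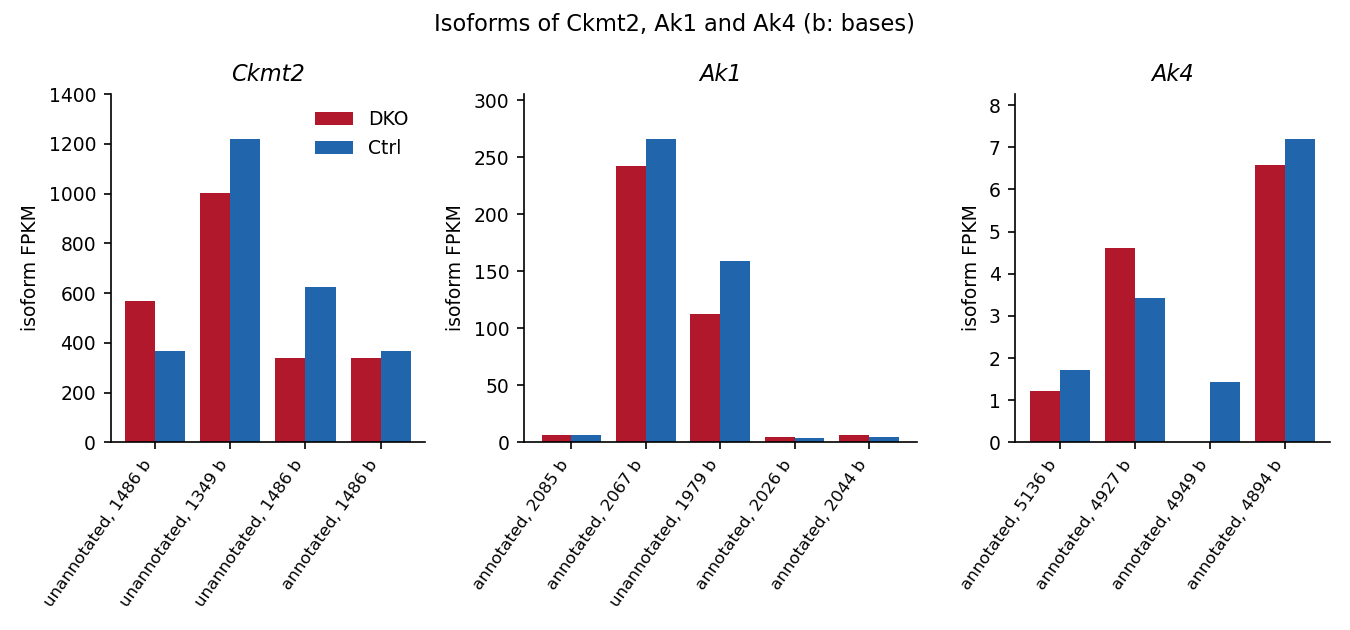
FPKM of each isoform of Ckmt2, Ak1 and Ak4 in DKO (red, left bar) and Ctrl (blue, right bar), with its length in bases and whether its splice junctions match the annotation. Bars are 1 pooled value per genotype and carry no error. In Ak1, the unannotated isoform of 1979 bases shows the widest gap, at 112 FPKM in DKO and 159 FPKM in Ctrl.

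The isoforms of Ckmt2 and Ak4 could not be separated well. Ckmt2 has 4 isoforms that share a single start site group, and 3 of these have a length of 1486 bases. In DKO, 2 of those 3 were listed at the identical value of 340 FPKM, and in Ctrl 2 of them were listed at 368 FPKM, with a different partner. The isoform that matches the annotation had too little data for the test by Cuffdiff's own status. The 3 isoforms outside the annotation held 84.9% of Ckmt2 FPKM in DKO and 85.7% in Ctrl. Their log2 ratios ran from -0.88 to 0.63, and none was called, while the gene total is free of this division. In Ak4, an isoform of 4949 bases was at 0.0137 FPKM in DKO and 1.43 FPKM in Ctrl, and one of 4927 bases was at 4.62 FPKM in DKO and 3.41 FPKM in Ctrl. Neither was called, with deposited p-values of 0.258 and 0.603 in the authors' deposited table, and these values shift between isoforms of nearly the same length.

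Over all isoforms of the members, 18 were tested, of which 2 were called higher and none lower, those of Ckb and Gatm. The background at this level was 3.02% of 18490 tested isoforms called, 1.90% higher and 1.12% lower. Among start site groups of the members, 2 of 13 tested were called higher and none lower, with a background of 4.94% called, 2.95% higher and 1.99% lower. Among their coding sequences, 2 of 9 tested were called higher and none lower, with a background of 4.64% called, 2.98% higher and 1.66% lower. The calls at each level were again those of Ckb and Gatm. Each of these genes has a single isoform, so the calls repeat the gene's own measurement.

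The creatine transporter Slc6a8 was at 88.9 FPKM in DKO and 82.4 FPKM in Ctrl (log2 ratio 0.11, q = 0.678 in the authors' deposited table). It lies on chromosome X at 70918472 to 70927839. Its isoform of 3964 bases held 93.7% of the gene in DKO and 95.0% in Ctrl. Another isoform, of 3979 bases, was listed at 0 in DKO and at 0.437 FPKM in Ctrl and was not tested. Slc6a8 was thus listed slightly higher in DKO, without a call.

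Gatm, which forms guanidinoacetate from arginine and glycine, was at 5.23 FPKM in DKO and 3.62 FPKM in Ctrl. Its log2 ratio of 0.53 came with p = 4e-04 and q = 0.00926 in the authors' deposited table, and 96.3% of tested genes had a lower ratio. Gatm lies on chromosome 2 at 122420209 to 122437013, with a single isoform of 2357 bases, and overlaps no other listed locus. With 1 FPKM added to both values, its log2 ratio was 0.43. Gamt, the enzyme of the next step, was at 7.49 FPKM in DKO and 6.42 FPKM in Ctrl and was not called (log2 ratio 0.22, q = 0.664 in the authors' deposited table). Both synthesis genes were at low levels, with 17.0 Slc6a8 per Gatm in DKO and 22.8 in Ctrl on the FPKM scale.

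Of 81 genes tested in 9 lists of genes that work next to the kinases, 2 (2.47%) were called higher and 7 (8.64%) lower in DKO. Among all tested genes, 4.30% were called higher and 3.06% lower. The listed genes spread over all levels and many are abundant, so that background is unlike the lists. At a mean FPKM from 1 to 10, 290 of 5835 tested genes were called higher and 104 lower. At a mean FPKM from 10 to 100, 172 of 5286 were called higher and 186 lower. Of the listed genes called lower, Nme6, Nt5c1a, Adsl and Ppara fall in this class. At a mean FPKM from 100 to 1000, 32 of 702 tested genes were called higher and 67 lower. At 1000 or more, 2 of 91 were called higher and 8 lower. Among the carriers and pores that pass ADP, ATP and phosphate through the mitochondrial membranes, 1 of 9 was called lower. This was the ADP/ATP carrier Slc25a4, at 5871 FPKM in DKO and 7591 FPKM in Ctrl (1.29-fold lower, q = 0.0340 in the authors' deposited table). The phosphate carrier Slc25a3 was at 1608 FPKM in DKO and 1935 FPKM in Ctrl and was not called. The median log2 ratio of this list was -0.05, beside -0.00420 over all tested genes. Of the ATP synthase genes, 2 of 16 were called lower, and 15 had ratios below 0 (median log2 -0.21). The called genes were Atp5d, a subunit of the catalytic part (735 FPKM in DKO and 899 FPKM in Ctrl), and Atp5g3, a subunit of the membrane ring (3485 FPKM in DKO and 4305 FPKM in Ctrl). The catalytic subunit gene Atp5b was at 6637 FPKM in DKO and 7686 FPKM in Ctrl and was not called.

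Where ATP is used, no called gene was found among 10 pumps, channels and motors, and 1 had an unadjusted p under 0.05. That gene was the myosin Myh7, at 287 FPKM in DKO and 246 FPKM in Ctrl. Of the 10 ratios, 5 were below 0 and 5 above, with a median log2 of -0.00595. The calcium pump Atp2a2 of the sarcoplasmic reticulum was at 4294 FPKM in DKO and 5297 FPKM in Ctrl, and the cardiac myosin Myh6 at 4242 FPKM in DKO and 4636 FPKM in Ctrl. Of the nucleoside diphosphate kinases, which pass phosphate from ATP to other nucleotides, 1 of 7 was called lower. This was Nme6, at 11.2 FPKM in DKO and 15.3 FPKM in Ctrl (q = 0.0316 in the authors' deposited table), while Nme2, the most abundant, was at 433 FPKM in DKO and 462 FPKM in Ctrl.

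In the breakdown and salvage of AMP, 1 gene was called higher and 2 were called lower of 13. Nt5e, the ectoenzyme CD73 that releases adenosine outside the cell, was 1.37-fold higher, at 8.94 FPKM in DKO and 6.52 FPKM in Ctrl. Nt5c1a, the cytosolic nucleotidase that does so inside muscle cells, was 1.32-fold lower, at 17.7 FPKM in DKO and 23.4 FPKM in Ctrl. Adsl, of purine synthesis, was 1.22-fold lower, at 37.2 FPKM in DKO and 45.5 FPKM in Ctrl. Adk, which returns adenosine to AMP, was at 114 FPKM in DKO and 135 FPKM in Ctrl without a call. Of the AMPK genes, only Prkag3 was called among 9, at 2.86 FPKM in DKO and 2.01 FPKM in Ctrl (1.42-fold higher, q = 0.0390 in the authors' deposited table). It is the gamma subunit typical of skeletal muscle, while Prkag1, the most abundant subunit here, was at 86.7 FPKM in DKO and 90.3 FPKM in Ctrl.

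Regulators of energy genes had ratios below 0 in 11 of 13 tested, with a median log2 of -0.15. Only Ppara, a nuclear receptor that drives fatty acid oxidation genes, was called, at 20.1 FPKM in DKO and 25.6 FPKM in Ctrl (1.27-fold lower, q = 0.00517 in the authors' deposited table). Esrra, the estrogen-related receptor alpha, was at 77.1 FPKM in DKO and 85.3 FPKM in Ctrl, and Mef2d, a muscle transcription factor, at 53.0 FPKM in DKO and 54.2 FPKM in Ctrl.

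**Figure D4:**
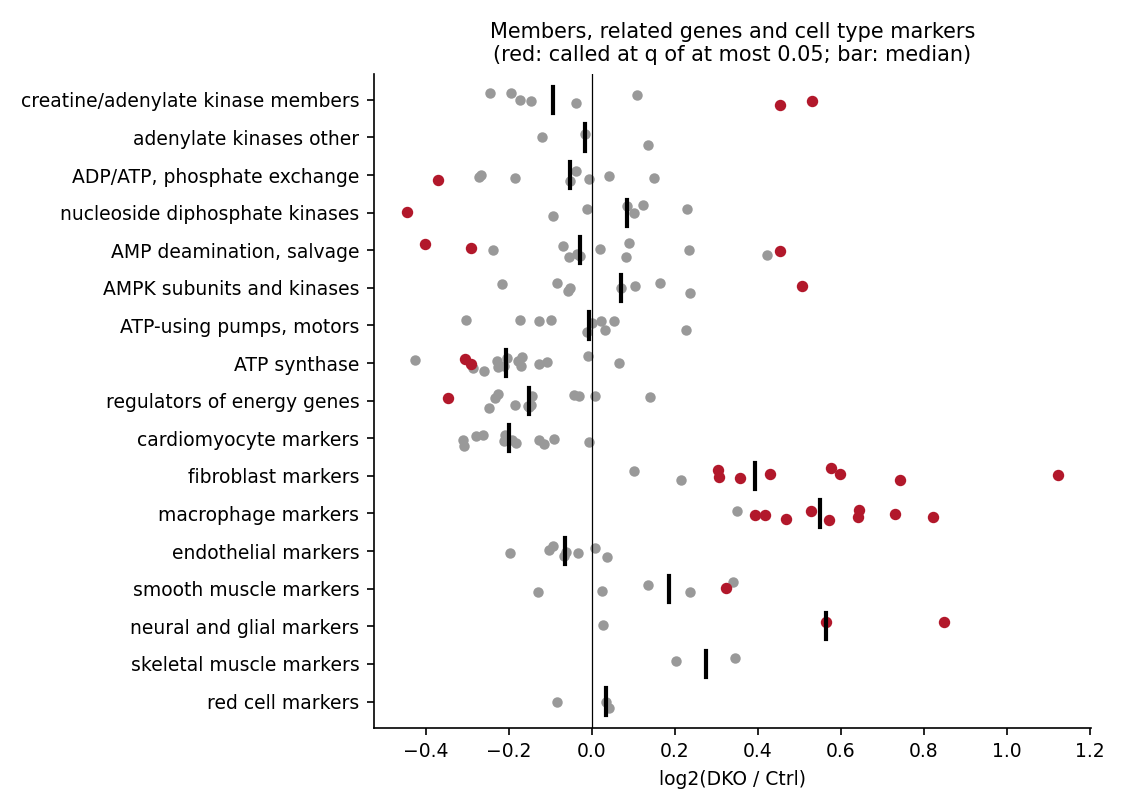
The log2 ratio of DKO over Ctrl for each tested gene of the members, of related gene lists and of cell type marker lists, with called genes in red and a bar at each list's median. The median is -0.09 for the members, -0.21 for ATP synthase, -0.20 for cardiomyocyte markers and 0.55 for macrophage markers.

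Ventricular tissue holds several cell types, and Ckb and Gatm are expressed in many of them, so the marker levels are given beside these genes. All 12 cardiomyocyte markers had ratios below 0 and none was called by Cuffdiff, although 4 had an unadjusted p under 0.05. Their summed FPKM was 77573 in DKO and 90611 in Ctrl, with Myl2 at 17014 FPKM in DKO and 20639 FPKM in Ctrl and Mb, myoglobin, at 14207 FPKM in DKO and 17576 FPKM in Ctrl. All 10 fibroblast markers had ratios above 0 and 8 were called higher, with a summed FPKM of 833 in DKO and 637 in Ctrl. Postn, a matrix protein of activated fibroblasts, was at 33.5 FPKM in DKO and 15.4 FPKM in Ctrl, and Dcn at 465 FPKM in DKO and 376 FPKM in Ctrl. All 10 tested macrophage markers had ratios above 0 and 9 were called higher, with a summed FPKM of 417 in DKO and 272 in Ctrl. The lysozyme gene Lyz2 led them, at 189 FPKM in DKO and 107 FPKM in Ctrl.

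Smooth muscle markers had 1 called gene of 6, Acta2, at 378 FPKM in DKO and 302 FPKM in Ctrl. Smtn, the next most abundant, was at 146 FPKM in DKO and 160 FPKM in Ctrl without a call. Of the 6 ratios, 5 were above 0 and 1, that of Smtn, was below. The sum of the list was 571 in DKO and 504 in Ctrl, a rise smaller than that of Acta2 alone. Of the neural and glial markers, 3 of 9 were tested and 2 were called higher. These were Uchl1 at 10.8 FPKM in DKO and 5.99 FPKM in Ctrl and Ncam1 at 1.51 FPKM in DKO and 1.02 FPKM in Ctrl. The defining neural gene Syt1 was listed at 0.0173 FPKM in DKO and at 0 in Ctrl, and the sum of the list was 17.8 in DKO and 12.0 in Ctrl. Endothelial markers had no called gene of 8, with 1 at an unadjusted p under 0.05, and a sum of 388 in DKO and 412 in Ctrl. Skeletal muscle markers had no called gene of 2 tested, none at an unadjusted p under 0.05, and a sum of 5.83 in DKO and 4.59 in Ctrl. Red cell loci had none of 3 called, none at an unadjusted p under 0.05, and a sum of 1237 in DKO and 1206 in Ctrl. The part of any of these cell types in the values of Ckb and Gatm was not tested.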

How the data were processed

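Reads from 8 ventricle libraries were processed by the authors with TopHat2 2.0.9, Cufflinks 2.1.1 and Cuffdiff 2.1.1 on mm9, per the submitters' processing notes. The annotation and the settings were not found in those notes. The 5 deposited tables hold 1 FPKM per genotype, so depth is unknown, and no interval, floor or test across animals was computed. Cuffdiff also gave the p-values and q-values that the authors deposited, per the file headers. The deposited log2 fold change sets Ctrl over DKO. Ratios were recomputed as DKO over Ctrl, and in the subset of 642 genes differed from the deposited ones by at most 9.72e-06 apart from sign. The q-values matched Benjamini-Hochberg adjustment over all tested genes to 5.18e-07. Locus starts count from 0 (locus width equalled isoform length in 2419 single-isoform loci) and are written counting from 1. Levels of different genes were compared only as FPKM.

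Members and lists were chosen with earlier results of these data known. Text names all members, up to 4 called genes with an FPKM of at least 1 and the 2 most abundant of each pathway list, and 2 of each in marker lists. Not every gene the rule takes is printed. With 2 values per gene, no genes of like pattern were sought. Of listed names, Ak6, Ak9, Perm1 and Adgre1 were not matched. The start of the main Ak1 transcript was matched to its promoter window by RefSeq accession through GENCODE M21. Protein sequences were not used here. Computations used Python 3.11.15, pandas 2.3.3, numpy 2.4.6, SciPy 1.17.1 and matplotlib 3.10.9. The adjustment was tested on simulated p-values, and the motif search on short made-up sequences.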

Additional observations from a re-analysis of the deposited data

How the results depend on the processing

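No paired analysis was possible because the tables hold 1 pooled value per genotype, and leaving out a replicate could not be run for the same reason. No member was called lower under any of the 8 alternatives tried. The filters by q, fold and mean FPKM only remove called genes, so they could not have added a lower one. The 2 members called higher stayed 2 under 7 of the 8, namely a q of at most 0.01, a fold of at least 1.3, a mean FPKM of at least 1, adjustment over the 11914 genes at that level, and the 3 other feature levels. At a mean FPKM of at least 5 the count was 1, because Gatm lies under that level. The 3 other feature levels repeat the single-isoform measurements of Ckb and Gatm, so they are no separate check. Of 72 recomputed log2 ratios of members, 68 kept their direction and 4 reversed, all when centred on cardiomyocyte markers. The 4 were Ckm (0.0265), Ckmt2 (0.00614), Ak3 (0.163) and Ak4 (0.0536). Many of the 68 were fixed in advance. A constant added to both genotypes cannot turn a direction. For members with a single isoform, the sums and the main isoform equal the gene's value. The 72 include those of the untested Ckmt1. Genes of the related lists called lower, 7, numbered 1 at a q of at most 0.01 and 2 with a fold of at least 1.3, and those called higher, 2, numbered 1 at a q of at most 0.01. The share of Ckb, 1.55 times as large in DKO, was 1.54 times within cytosolic genes. Depth and values per animal were not used here. The changes listed for Ckm, Ckmt2 and Ak1 are thus ratios of 1 pooled value per genotype. Their only test is the authors' Cuffdiff, which called none of them.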
